A study of Mus musculus with 2 samples.

Results

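The genes described here are 9 genes of extracellular matrix breakdown and its control. They comprise the matrix metalloproteinases Mmp8, Mmp9, Mmp12, Mmp14 and Mmp19, the membrane protease Adam8, the urokinase gene Plau, and the metalloproteinase inhibitors Timp1 and Timp2. They were taken by symbol from the gene list of the count matrices and are 9 of its 31053 entries. All 9 had transcripts in both libraries and all 9 were among the 12179 genes that passed the filter on low counts before testing.

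Matrix metalloproteinases are zinc enzymes, made as inactive proforms, that cleave collagens, gelatins, elastin and many cell surface proteins. TIMP proteins block them by occupying the active site, and urokinase converts plasminogen to plasmin, which dissolves fibrin and can activate several of the proforms. In the ischemic brain these enzymes are best known for opening the blood-brain barrier and for the later clearance and remodelling of damaged tissue.

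The cells came from ischemic brain of Foxp3Egfp mice, whose Foxp3 gene, needed by regulatory T cells, carries an Egfp reporter, at 6 to 8 weeks of age. After a PBS flush, cells positive for CD45, CD11b and F4/80 and negative for CD3 were sorted, and transcripts were counted as unique molecular identifiers (UMIs) with the Chromium 3' v3 chemistry. There was 1 group with 2 libraries, replicate 1 and replicate 2, and no control group, so each comparison sets one kind of cell against another within these libraries. Barcoded cDNA of stroke mice was combined, per the labels. Nothing states that the libraries come from separate animals, and p-values then measure only the spread between these 2 libraries, which may be technical. The sources used here give no time after ischemia.

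The libraries held 101893367 and 62850768 UMIs in all, and 13624 and 7409 cells were clustered after filtering and doublet removal, at a median of 4976 and 5612 UMIs per cell. The samples are labelled as macrophages, but cells with microglia markers (microglia-like) were the largest class in each library, at 45.8% and 65.1% of cells. Cells with macrophage markers (macrophage-like) made up 34.9% and 7.64%. Under other settings the order changed in replicate 1, where macrophage-like cells were 41.9% and microglia-like cells 39.8% with a stricter cell filter, and 34.9% and 32.8% at finer clustering (Leiden 1.2). Monocyte-like cells made up 2.67% and 5.60%, neutrophil-like cells 5.26% and 7.94%, dendritic cell-like cells 2.22% and 3.199%, T or NK cell-like cells 1.01% and 1.30%, cycling-like cells 3.89% and 2.40%, and mural or fibroblast-like cells 1.12% and 1.27%. Cells of the neutrophil-like class and of the T or NK class were present in spite of a sort on CD11b and F4/80 and against CD3, and the study's design text speaks of a low sorting signal. The libraries differed in makeup, and the macrophage-like clusters came mostly from replicate 1. The neutrophil-like class also carried microglia markers, whose summed level there was 80.0% and 45.9% of that in microglia-like cells. The cycling-like class was a mixture that differed between the libraries. It carried microglia markers at 56.5% and 69.5% of their microglia-like level, and macrophage markers at 45.4% and 14.7% of their macrophage-like level. Barcodes under 100 UMIs, taken as free RNA, held 4.91% and 4.40% of all UMIs. The libraries shared 31 cell barcodes. Below, levels are in CPM, the UMIs of a gene divided by all UMIs of its class and scaled to the usual CPM total, given for replicate 1 and then replicate 2. In 3' counts CPM is not corrected for transcript length and detection differs by gene, so a level is compared between classes and not between genes.

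Among the secreted enzymes, Mmp9, gelatinase B of neutrophil granules, stood highest in neutrophil-like cells. Its level was 142 and 401 CPM there, 3.81 and 5.65 CPM in macrophage-like cells and 18.6 and 9.09 CPM in mural or fibroblast-like cells, against 22.5 and 10.4 CPM in monocyte-like cells and 1.27 and 0.250 CPM in microglia-like cells. The neutrophil-like range did not overlap any other class. The neutrophil-like class was 5.26% and 7.94% of cells and held 66.8% and 77.7% of all Mmp9 UMIs. An Mmp9 UMI was seen in 44.2% (exact 95% interval 40.5% to 47.9%) and 66.7% (62.7% to 70.5%) of neutrophil-like cells, against 0.321% and 0.104% of microglia-like cells. With every cell thinned to 1000 UMIs these shares were 16.6% and 36.1% of neutrophil-like cells, against 0.0160% and 0.0622% of microglia-like cells. Such intervals cover counting error only. Mmp9 lies at chr2:164940780-164955850 on the plus strand of GRCm38.

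Mmp8, the neutrophil collagenase, was not limited to neutrophil-like cells. Its level was 62.6 and 106 CPM in neutrophil-like cells and 37.0 and 24.3 CPM in macrophage-like cells, against 60.6 and 62.5 CPM in monocyte-like cells and 2.16 and 0.125 CPM in microglia-like cells. The order neutrophil-like, monocyte-like, macrophage-like held in each library and the ranges of these neighbours did not overlap, though the neutrophil-like and monocyte-like levels lay close in replicate 1. The sum of the 11 neutrophil markers in macrophage-like cells was 176 and 167 CPM, 0.530% and 0.200% of its level in neutrophil-like cells. Retnlg was at 0 there in replicate 2, and Ly6g was at 0 in both libraries, as in every named class except neutrophil-like. Free RNA held Mmp8 at 17.6 and 5.42 CPM. Macrophage-like cells held 70.4% of the Mmp8 UMIs in replicate 1, where they were 34.9% of cells, and 19.4% in replicate 2, where they were 7.64% of cells and neutrophil-like cells held 51.5%. An Mmp8 UMI was seen in 18.8% and 13.96% of macrophage-like cells (thinned 2.88% and 1.41%), against 0.898% and 0.0829% of microglia-like cells (thinned 0.225% and 0.0415%); their median UMIs per cell were 6667 and 8719, against 3662 and 5189.

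Mmp12, macrophage elastase, had its highest mean levels in macrophage-like and dendritic cell-like cells. Its level was 27.8 and 41.4 CPM in macrophage-like cells and 39.5 and 24.8 CPM in dendritic cell-like cells, against 0.866 and 12.8 CPM in monocyte-like cells and 8.52 and 1.60 CPM in microglia-like cells. Cycling-like cells differed between the libraries, at 26.1 and 5.83 CPM, with an Mmp12 UMI in 9.06% and 2.25% of cells. The makeup of that class also differed, with macrophage markers at 20330 and 4535 CPM, and its part in the difference was not tested. The macrophage-like and dendritic cell-like ranges overlapped, as did the dendritic cell-like and cycling-like ones, and no Mmp12 UMI was seen in the T or NK cell-like class of either library. Mmp12 was detected in few cells, 5.74% (5.10% to 6.44%) and 3.71% (2.31% to 5.62%) of macrophage-like cells, against 1.22% and 0.311% of microglia-like cells. Thinned to 1000 UMIs, the macrophage-like shares were 1.64% and 1.06%.

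Mmp8 (chr9:7558456-7568485) and Mmp12 (chr9:7344381-7369499) are members of the metalloproteinase cluster on chromosome 9, both on the plus strand of GRCm38. The regions around their starts are shown because both genes were higher in macrophage-like than in microglia-like cells. RefSeq windows of GRCm38.p6, from 250 bases before to 50 bases after a start, were found for 6 of the 9 genes, and Mmp12 has 2 windows. Capitals mark matches on either strand to the AP-1 motif TGANTCA and to the ETS core GGAAGT, bound by families of transcription factors known to act at metalloproteinase genes. The windows lie at chr9:7558179-7558478 for Mmp8, chr9:7344147-7344446 for the first Mmp12 window and chr9:7347124-7347423 for the second, on the plus strand.
Mmp8 start: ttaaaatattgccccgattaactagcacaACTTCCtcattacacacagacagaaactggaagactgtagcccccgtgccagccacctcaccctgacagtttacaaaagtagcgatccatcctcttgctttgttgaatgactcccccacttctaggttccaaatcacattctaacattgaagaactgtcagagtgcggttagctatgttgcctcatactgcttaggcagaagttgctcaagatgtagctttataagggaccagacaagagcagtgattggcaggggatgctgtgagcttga
Mmp12 first start: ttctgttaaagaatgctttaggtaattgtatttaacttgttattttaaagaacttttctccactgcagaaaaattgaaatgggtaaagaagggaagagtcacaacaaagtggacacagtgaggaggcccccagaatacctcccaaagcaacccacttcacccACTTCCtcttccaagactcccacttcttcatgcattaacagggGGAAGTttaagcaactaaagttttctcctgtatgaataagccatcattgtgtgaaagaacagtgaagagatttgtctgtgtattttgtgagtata
Mmp12 second start: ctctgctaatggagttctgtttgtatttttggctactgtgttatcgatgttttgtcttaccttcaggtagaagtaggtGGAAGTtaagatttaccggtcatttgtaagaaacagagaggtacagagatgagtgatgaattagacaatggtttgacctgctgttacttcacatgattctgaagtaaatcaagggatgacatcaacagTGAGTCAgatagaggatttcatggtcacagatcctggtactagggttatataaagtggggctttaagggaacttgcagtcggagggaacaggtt
The second Mmp12 window holds the AP-1 letters TGAGTCA from base -44 to -38, counted back from the start, and an ETS match from -172 to -167. The first holds ETS matches at -88 to -83 and -45 to -40, and Mmp8 holds one at -221 to -216. Of 32817 RefSeq windows of this length, 7.81% hold the AP-1 motif and 23.8% the ETS core, so a match describes the letters and not a bound site. The windows of Mmp14, Adam8 and Timp2 held neither motif, which says only that these letters are not in them. Another 2 motifs known at inducible genes, the cyclic AMP element TGACGTCA and the NF-kB motif, are in 1.79% and 0.411% of windows and in none of these 7, and the TATA letters TATAAA, in 13.6% of windows on either strand, are in the second Mmp12 window and, on the opposite strand and so as TTTATA in the letters shown, in the Mmp8 window.

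Mmp14, the membrane-anchored enzyme that cleaves collagen at the cell surface and activates the proform of gelatinase A, was highest in mural or fibroblast-like cells at 256 and 263 CPM. Among myeloid classes it had 42.6 and 59.1 CPM in macrophage-like cells, 15.1 and 7.15 CPM in neutrophil-like cells and 34.7 and 29.7 CPM in dendritic cell-like cells, against 22.5 and 48.7 CPM in monocyte-like cells and 11.5 and 8.20 CPM in microglia-like cells. The mural or fibroblast-like range stood apart, and the monocyte-like range overlapped both the macrophage-like and the dendritic cell-like one, which did not overlap each other. Mmp19, an enzyme of basement membrane components, was highest in monocyte-like cells. Its level was 8.57 and 10.7 CPM in macrophage-like cells and 1.29 and 4.97 CPM in neutrophil-like cells, against 49.4 and 60.8 CPM in monocyte-like cells and 2.44 and 1.28 CPM in microglia-like cells. Mural or fibroblast-like cells held 35.5 and 30.7 CPM, and the monocyte-like, mural or fibroblast-like and macrophage-like ranges followed each other without overlap. Mmp14 lies at chr14:54431612-54445364 and Mmp19 at chr10:128790910-128800824, both on the plus strand. On the opposite strand, Mmp19 shares 789 exon bases with Tmem198b and 212 with Gm47093, Mmp12 shares 157 with Mmp1b, and Adam8 shares 46 with Gm16201. No source used here says whether the counting used strand, so whether reads there were told apart is not known here.

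Adam8, a membrane protease and sheddase of leukocytes, was spread over monocyte-like, macrophage-like and neutrophil-like cells. Its level was 203 and 143 CPM in macrophage-like cells and 71.4 and 127 CPM in neutrophil-like cells, against 231 and 266 CPM in monocyte-like cells and 26.0 and 6.92 CPM in microglia-like cells. The monocyte-like range lay above the macrophage-like one, and that above the neutrophil-like one, without overlap. Cycling-like cells, at 74.5 and 7.91 CPM, overlapped neutrophil-like cells. An Adam8 UMI was seen in 56.5% (55.1% to 57.9%) and 50.5% (46.3% to 54.7%) of macrophage-like cells, against 41.5% and 63.4% of monocyte-like cells, 7.97% and 3.13% of T or NK cell-like cells and 8.03% and 3.23% of microglia-like cells. At 1000 UMIs per cell the shares were 15.7% and 12.2% of macrophage-like cells, against 22.5% and 17.3% of monocyte-like cells and 1.89% and 0.456% of microglia-like cells. T or NK cell-like cells held 42.1 and 7.04 CPM and the free RNA 128 and 54.2 CPM. Macrophage-like cells held 79.1% and 34.0% of all Adam8 UMIs. Adam8 lies at chr7:139978932-139992562 on the minus strand.

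Plau, urokinase, was highest in cycling-like cells at 33.8 and 28.3 CPM and lowest by mean in mural or fibroblast-like cells at 10.1 and 5.11 CPM. It had 20.7 and 21.5 CPM in macrophage-like cells and 14.2 and 12.7 CPM in neutrophil-like cells, against 9.53 and 23.8 CPM in monocyte-like cells and 20.01 and 24.97 CPM in microglia-like cells. Below the cycling-like class each class overlapped its neighbour in order, while the macrophage-like and microglia-like ranges lay above the neutrophil-like one. Free RNA held 18.0 and 24.2 CPM. Plau lies at chr14:20836660-20843385 on the plus strand.

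Timp1, the inducible soluble inhibitor, was highest in mural or fibroblast-like cells at 328 and 476 CPM. Its level was 6.42 and 12.99 CPM in macrophage-like cells and 1.94 and 0.311 CPM in neutrophil-like cells, against 103 and 132 CPM in monocyte-like cells and 0.283 and 0.282 CPM in microglia-like cells. The mural or fibroblast-like, monocyte-like and dendritic cell-like ranges followed each other without overlap, and the dendritic cell-like range, 9.58 and 17.9 CPM, overlapped the macrophage-like one. The 7 mural and fibroblast markers summed to 1.31 and 1.32 CPM in macrophage-like cells and to 2.60 and 1.04 CPM in monocyte-like cells. Free RNA held 12.6 and 26.7 CPM. The microglia-like values rest on 8 and 9 UMIs and the neutrophil-like ones on 9 and 1. A Timp1 UMI was seen in 3.49% and 5.83% of macrophage-like cells, against 10.2% (7.26% to 13.7%) and 18.3% (14.7% to 22.4%) of monocyte-like cells and 0.112% and 0.187% of microglia-like cells. At 1000 UMIs the shares were 0.568% and 0.707% of macrophage-like cells, against 7.14% and 7.23% of monocyte-like cells. The gene lies at chrX:20870166-20874735 on the plus strand, within Syn1 on the opposite strand, with no shared exon bases. Its RefSeq start window, chrX:20869916-20870215, is shown because Timp1 had the highest fitted fold of the 9 genes between macrophage-like and microglia-like cells. The capitals mark 1 ETS match from -174 to -169.
Timp1 start: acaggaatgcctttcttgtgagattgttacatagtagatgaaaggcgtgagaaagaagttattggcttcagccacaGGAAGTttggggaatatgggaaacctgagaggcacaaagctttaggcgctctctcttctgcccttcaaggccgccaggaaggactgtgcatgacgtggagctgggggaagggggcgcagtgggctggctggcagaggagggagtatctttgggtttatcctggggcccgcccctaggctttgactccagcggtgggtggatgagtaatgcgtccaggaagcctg

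Timp2, the constitutive inhibitor that also takes part in activation of gelatinase A by Mmp14, was highest in microglia-like cells. Its level was 644 and 379 CPM in macrophage-like cells and 680 and 430.2 CPM in neutrophil-like cells, against 230.4 and 81.2 CPM in monocyte-like cells and 957 and 784 CPM in microglia-like cells. The microglia-like range did not overlap the next, cycling-like cells at 778 and 640.2 CPM, and below that each class overlapped its neighbour in order. A Timp2 UMI was seen in 83.7% and 91.2% of microglia-like cells and in 91 of 364 and 112 of 415 monocyte-like cells, and at 1000 UMIs in 54.4% and 50.1% of microglia-like cells and 10.7% and 6.51% of monocyte-like cells. Free RNA held Timp2 at 690.0 and 632 CPM and T or NK cell-like cells at 419 and 324 CPM. The T or NK class carried the 10 microglia markers at 46.0% and 22.0% of their microglia-like level. Timp2 lies at chr11:118301069-118355740 on the minus strand.

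**Figure D1:**
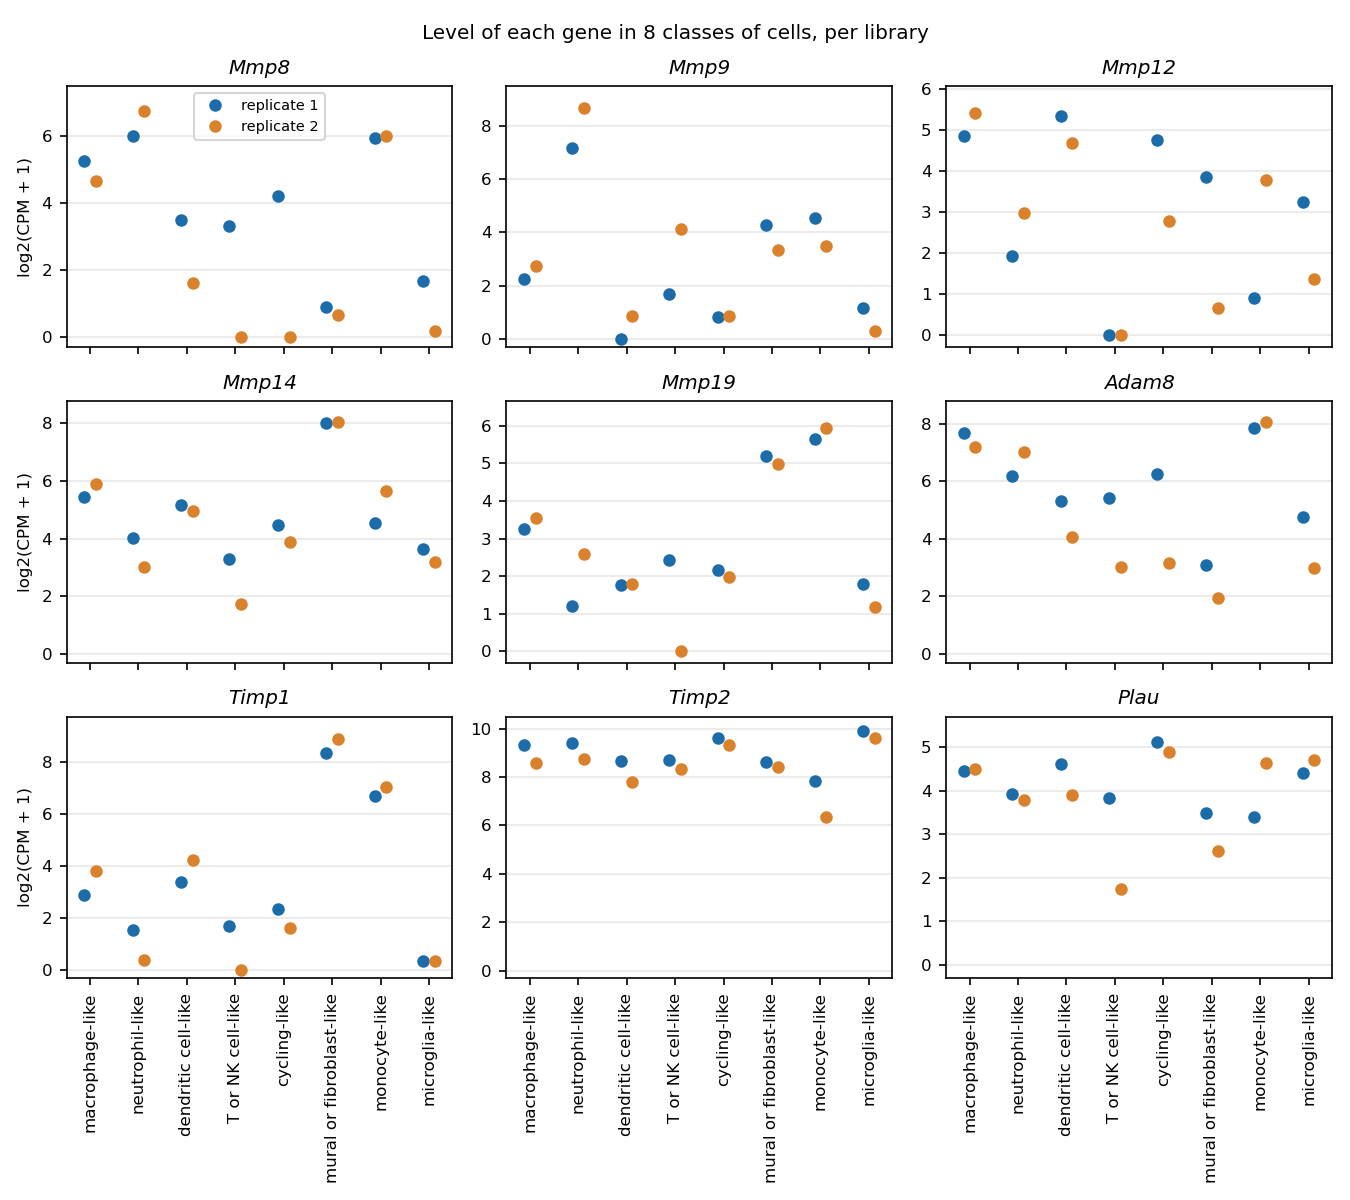
Level of each of the 9 genes in 8 cell classes, as log2(CPM + 1) on the vertical axis, with 1 point per library. Mmp9 is highest in neutrophil-like cells, Mmp14 and Timp1 in mural or fibroblast-like cells, Mmp19 in monocyte-like cells, and Timp2 in microglia-like cells at 957 and 784 CPM.

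The classes were compared with edgeR's quasi-likelihood test on UMIs summed per library and class, with the library as a block and Benjamini-Hochberg adjustment over all genes tested (threshold 0.05). The 9 genes were left out of clustering, but the classes come from other transcripts of the same cells. The p-values therefore only set a difference against the spread between the 2 libraries, estimated over all 8 classes of the fit. A small p does not show that the within-library folds were alike. In a sum over cells, fewer cells with a transcript and less RNA per cell cannot be told apart.

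Macrophage-like over microglia-like cells compares classes named from transcripts, and the origin of the cells was not measured. The 10 border-associated macrophage markers summed to 2040 and 2486 CPM in macrophage-like cells, against 391 and 214 CPM in microglia-like cells. Of the 9 genes 7 were higher in macrophage-like cells, none was lower and 2 did not pass the test, while of all genes tested 24.6% were higher and 20.6% lower. The median log2 fold change over the 9 genes was 2.90, against 0.05 over all genes. Timp1 had a log2 fold change of 5.27 ± 0.41 (SE; adjusted p = 2.41e-07 by edgeR) and Mmp8 of 5.19 ± 0.73 (adjusted p = 3.12e-05). Within-library log2 folds were 3.98 and 4.83 for Timp1 and 4.33 and 6.19 for Mmp8. Adam8 rose by 3.89 ± 0.63 (adjusted p = 0.000125 by edgeR; within libraries 3.34 and 4.59), Mmp12 by 3.26 ± 0.64 (0.0008; 2.06 and 4.75) and Mmp9 by 2.90 ± 0.63 (0.00143; 1.77 and 3.74). The folds of these genes were thus larger in replicate 2. There the microglia-like level was lower for Mmp8, Adam8, Mmp12 and Mmp9, but alike for Timp1, at 0.283 and 0.282 CPM. The macrophage-like level was higher there for Timp1, at 6.42 and 12.99 CPM, and also for Mmp12 and Mmp9. The Mmp9 call rests on few cells, as described below, and was lost with only the 2 macrophage-like clusters of at least 100 cells in each library (2.12, adjusted p = 0.0513). Mmp14 rose by 2.69 ± 0.32 (adjusted p = 6.57e-06 by edgeR; 2.25 and 3.08) and Mmp19 by 2.68 ± 0.34 (1.27e-05; 2.08 and 3.09). Timp2 had a log2 fold change of -0.48 ± 0.22 (adjusted p = 0.0926), with ranges that did not overlap, and Plau of 0.24 ± 0.27 (adjusted p = 0.497). Timp2 passed as lower with doublets kept (-0.49, adjusted p = 0.0341) and with the 2 larger macrophage-like clusters alone (-0.62, adjusted p = 0.0348). The macrophage-like class carried the 10 microglia markers at 14.6% and 12.1% of their microglia-like level.

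**Figure D2:**
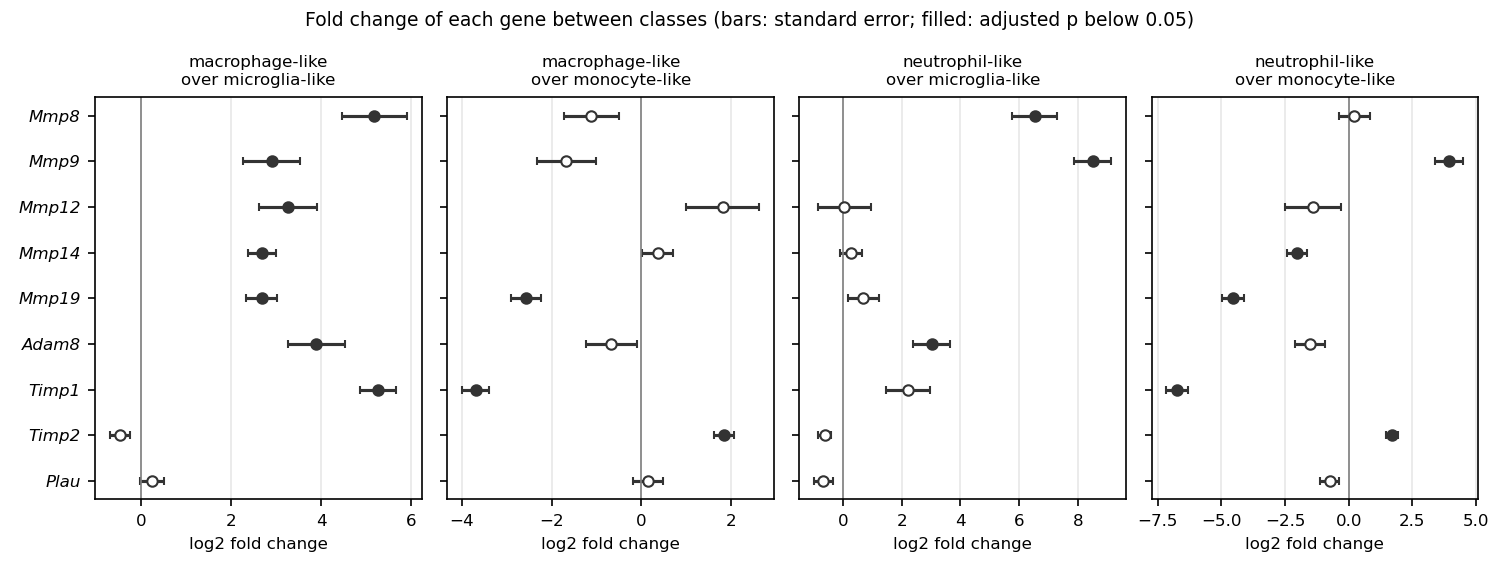
Log2 fold change of each of the 9 genes in the 4 class comparisons, on the horizontal axis, with bars of 1 SE and filled points where the adjusted p is below 0.05. In macrophage-like over microglia-like cells 7 genes lie to the right of 0 with filled points, and Timp2 and Plau are open.

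Other genes of matrix turnover moved both ways between these classes. Of the 11 tested of 14 listed plasminogen system genes, 6 were higher in macrophage-like cells and 2 lower, with a median log2 fold change of 1.45. S100a10, the plasminogen-binding partner of annexin A2, had 265 and 527 CPM in macrophage-like cells, against 13.4 and 10.1 CPM in microglia-like cells (log2 fold change 5.36 ± 0.52, adjusted p = 1.04e-06 by edgeR). Of 18 matrix proteins and other substrates 9 were higher and 2 lower, with a median of 1.52. Thbs1, the matricellular protein thrombospondin 1, was at 481 and 793 CPM in macrophage-like cells, against 32.0 and 7.60 CPM in microglia-like cells (5.66 ± 0.76, adjusted p = 2.16e-05). Of 9 tested inhibitors and clearance genes 2 were higher and 3 lower (median -0.43). Slpi, the secreted inhibitor of neutrophil elastase, had 44.2 and 127 CPM in macrophage-like cells, against 2.09 and 1.06 CPM in microglia-like cells (5.87 ± 0.59, adjusted p = 1.41e-06). Of 11 activators and binding partners 2 were higher and 1 lower (median 0.15), with Cd44, the hyaluronan receptor that can hold Mmp9 at the cell surface, at 3.91 ± 0.49. Of 7 tested further metalloproteinases 2 were higher and 2 lower (median 0.20), among them Mmp27 at 18.3 and 6.59 CPM in macrophage-like cells, against 0.636 and 0.125 CPM in microglia-like cells (5.37 ± 0.39). Of 13 tested ADAM and ADAMTS genes 3 were higher and 2 lower (median -0.14). The aggrecanase Adamts1 was lower, at 7.15 and 5.83 CPM in macrophage-like cells, against 276 and 280.4 CPM in microglia-like cells (-5.11 ± 0.43, adjusted p = 3.88e-07). Of 14 transcription factors known to act at protease genes 4 were higher and 5 lower (median -0.24), with Jun, an AP-1 subunit, at -1.68 ± 0.26. Of 4 tested genes of neutrophil granules, a list that also holds the peroxidase Mpo, 2 were higher and none lower.

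Macrophage-like over monocyte-like cells asks how far the genes differ between these classes, which were not sharply separate. The monocyte-like class carried the 10 macrophage markers at 40.6% and 90.6% of their macrophage-like level. At Leiden 0.4 the cluster named monocyte-like was led by Arg1 and Hmox1. Timp2 was higher in macrophage-like cells, Timp1 and Mmp19 were lower, and 6 genes did not pass, beside 10.3% of all genes higher and 12.8% lower. Timp1 fell by 3.69 ± 0.30 on the log2 scale (SE; adjusted p = 2.57e-06 by edgeR; within libraries -3.77 and -3.48). Mmp19 fell by 2.57 ± 0.33 (adjusted p = 6.65e-05; -2.31 and -2.64). Timp2 had a log2 fold change of 1.84 ± 0.23 (adjusted p = 5.73e-05; 1.67 and 2.05) and lost the call under the stricter cell filter (0.80, adjusted p = 0.177). Among the genes that did not pass, Adam8 had -0.67 ± 0.57 (adjusted p = 0.449) and Mmp8 -1.11 ± 0.62 (0.218). Mmp12 had 1.81 ± 0.81 (adjusted p = 0.127), with within-library values of 4.86 and 1.52, the first against a single UMI in monocyte-like cells of that library. Mmp9 had -1.67 ± 0.66 (adjusted p = 0.0812), Mmp14 0.36 ± 0.33 (0.49) and Plau 0.15 ± 0.34 (0.823). Not passing does not show that the levels were alike. The median over the 9 genes was -0.67, against 0.06 over all genes.

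Most of the genes called in the other lists were lower in macrophage-like cells. Of the 14 transcription factors 9 were lower in macrophage-like cells and none was higher, with a median of -1.01. Cebpb, a factor of myeloid development, had 664 and 1864 CPM in macrophage-like cells, against 3229 and 3989 CPM in monocyte-like cells (-1.60 ± 0.31, adjusted p = 0.00162 by edgeR). Of 18 matrix substrates 6 were lower and none higher, led by Vcan, the proteoglycan versican, at 1.98 and 7.15 CPM in macrophage-like cells, against 152 and 136 CPM in monocyte-like cells (-5.35 ± 0.34). Slpi was also lower, at 44.2 and 127 CPM in macrophage-like cells, against 990.04 and 1836 CPM in monocyte-like cells (-4.14 ± 0.51); of the 9 tested inhibitors 2 were lower and none higher. Plaur, the urokinase receptor, was at 81.3 and 115 CPM in macrophage-like cells, against 275 and 379 CPM in monocyte-like cells (-1.75 ± 0.29), and 2 of 11 plasminogen system genes were lower and 1 higher. Further metalloproteinases gave 1 higher and 1 lower of 7, ADAM and ADAMTS genes none higher and 2 lower of 13, activators and partners 1 higher and 2 lower of 11, and neutrophil granule genes none in either direction of 4.

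Neutrophil-like over microglia-like cells had 3 of the 9 genes higher and none lower, beside 8.28% of all genes higher and 0.501% lower; the median of the 9 genes was 0.70, against -0.05 over all genes. Mmp9 had a log2 fold change of 8.51 ± 0.63 (SE; adjusted p = 1.25e-07 by edgeR; within libraries 6.55 and 9.71), Mmp8 of 6.53 ± 0.76 (adjusted p = 1.49e-05; 4.71 and 8.18) and Adam8 of 3.02 ± 0.63 (adjusted p = 0.00425; 1.46 and 4.29). All 3 folds were larger in replicate 2. There the neutrophil-like levels of these genes were higher and their microglia-like levels lower. Microglia-like Mmp8 was at 2.16 and 0.125 CPM and Adam8 at 26.0 and 6.92 CPM. The neutrophil-like class also held fewer microglia transcripts in replicate 2, and the cause of the larger folds was not tested. Adam8 lost the call without the library block (2.66, adjusted p = 0.0535). Timp1 had 2.23 ± 0.75 (adjusted p = 0.0826) on 9 and 1 UMIs in neutrophil-like cells, and passed as higher with no low-count filter (2.25, adjusted p = 0.00426), with doublets kept (3.58, 0.00761) and at Leiden 1.2 (2.62, 0.0381). Timp2 had -0.61 ± 0.22 (adjusted p = 0.12), Plau -0.66 ± 0.31 (0.248), Mmp12 0.05 ± 0.90 (1), Mmp14 0.29 ± 0.36 (0.717) and Mmp19 0.70 ± 0.53 (0.503).

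Set against monocyte-like cells, neutrophil-like cells had Mmp9 and Timp2 higher and Timp1, Mmp19 and Mmp14 lower, beside 10.8% of all genes higher and 12.9% lower. Mmp9 had a log2 fold change of 3.93 ± 0.57 (SE; adjusted p = 0.000189 by edgeR; within libraries 2.47 and 4.95). Timp1 fell by 6.72 ± 0.43 (adjusted p = 2.33e-07; -5.73 and -8.16), Mmp19 by 4.54 ± 0.43 (7.57e-06; -5.17 and -3.84) and Mmp14 by 2.04 ± 0.39 (0.00166; -0.75 and -3.02). Thus neutrophil-like cells joined the highest Mmp9 to low Timp1. Timp2 had 1.71 ± 0.23 (adjusted p = 0.00012; 1.38 and 2.11), and its call was lost under the stricter cell filter (0.75, adjusted p = 0.167). Mmp8 had 0.22 ± 0.61 (adjusted p = 0.855) and Adam8 -1.54 ± 0.59 (0.0714), which passed as lower with doublets kept (-1.98, 0.00931) and with no low-count filter (-1.53, 1.45e-10). Mmp12 had -1.40 ± 1.09 (0.39) and Plau -0.75 ± 0.38 (0.167). The median over the 9 genes was -1.40, against 0.09 over all genes. These comparisons share classes, so their counts are not independent of each other.

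The granule genes Elane, Prtn3, Ctsg and Mpo, all 4 tested of that list, were higher in neutrophil-like cells than in either other class. Prtn3, proteinase 3, had 28.5 and 112 CPM in neutrophil-like cells, against 6 UMIs in all microglia-like cells of both libraries. Slpi was at 416 and 1129 CPM in neutrophil-like cells, against 2.09 and 1.06 CPM in microglia-like cells (log2 fold change 8.84 ± 0.65, adjusted p = 1.25e-07 by edgeR). Of 9 tested inhibitors 3 were higher and none lower against microglia-like cells, and likewise 3 and none against monocyte-like cells. Of 14 transcription factors 4 were higher and none lower against microglia-like cells, with Ets2, an ETS factor, at 121 and 208 CPM in neutrophil-like cells, against 36.8 and 23.3 CPM in microglia-like cells. Against monocyte-like cells 3 of the 14 were lower and none higher. Against microglia-like cells the other lists gave 2 higher of 11 plasminogen system genes, 2 of 11 activators and partners, 3 of 18 substrates, 1 of 13 ADAM and ADAMTS genes and none of 7 further metalloproteinases, with none lower. Against monocyte-like cells 8 of the 18 substrates were lower and 2 higher, and 5 of the 11 plasminogen system genes were lower and 1 higher. There S100a10 had 33.2 and 19.6 CPM in neutrophil-like cells, against 1221 and 1662 CPM in monocyte-like cells (-6.01 ± 0.54). The remaining lists gave 1 higher and 1 lower of 7 further metalloproteinases, 2 and 2 of 13 ADAM and ADAMTS genes, and 1 and 3 of 11 activators and partners.

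Within the macrophage-like class, 2 clusters had at least 100 cells in each library. Cells led by Arg1 and Hmox1 (1109 and 375 cells) were set against cells led by Ms4a7 and Apoe (1803 and 137 cells, mostly of replicate 1), in a fit of 11166 genes in which 8.64% were higher and 8.35% lower. Timp1, Adam8, Mmp19 and Mmp12 were higher in the Arg1 cluster and Timp2 was lower. Timp1 was at 20.6 and 19.6 CPM in the Arg1 cluster, against 2.21 and 0.788 CPM in the Ms4a7 cluster (log2 fold change 3.02 ± 0.38 SE, adjusted p = 1.83e-05 by edgeR; within libraries 2.78 and 3.89). Adam8 was at 274 and 170.2 CPM, against 85.2 and 19.7 CPM in the Ms4a7 cluster (1.88 ± 0.52, adjusted p = 0.0134; 1.44 and 2.94). Both genes were higher in the Arg1 cluster of each library. Mmp19 was at 19.4 and 15.8 CPM in the Arg1 cluster, against 5.80 and 1.58 CPM in the Ms4a7 cluster (1.61 ± 0.37, adjusted p = 0.00359; 1.44 and 2.87). Timp2 was at 332 and 269.9 CPM in the Arg1 cluster, against 729.9 and 597 CPM in the Ms4a7 cluster (-1.33 ± 0.24, adjusted p = 0.000398; -1.37 and -1.29). The inhibitors thus ran opposite ways between these clusters. The Ms4a7 cluster values of replicate 2 rest on 1 Timp1 UMI and 2 Mmp19 UMIs, so those within-library folds are imprecise. Mmp12 was at 29.7 and 54.3 CPM in the Arg1 cluster, against 13.3 and 0 CPM in the Ms4a7 cluster (2.01 ± 0.67, adjusted p = 0.0408), and its within-library log2 fold in replicate 1 alone was 0.91. Without the library block Mmp12 (adjusted p = 0.15) and Adam8 (0.15) did not pass. Mmp9 had 2.26 (adjusted p = 0.113), and Mmp8, Mmp14 and Plau also did not pass.

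The other 3 macrophage-like clusters had 24 cells or fewer in replicate 2 and were not tested. Cells led by Fabp4 and Gpnmb (1442 and 24 cells) held Mmp8 at 53.7 and 10.8 CPM and Adam8 at 199 and 91.5 CPM. Cells led by Xist, Mrc1 and Marco (241 and 16 cells) held Adam8 at 537 and 371 CPM, the highest of the macrophage-like clusters in each library. They held Mmp9 at 39.2 and 2.54 CPM. A further cluster led by Hmox1 and Gclm (161 and 14 cells) held Mmp12 at 78.0 and 360 CPM. The 220 Mmp12 UMIs of macrophage-like cells in replicate 2 lay in 21 cells. Of these the Arg1 cluster held 172 UMIs in 16 cells and the Fabp4 cluster 8 UMIs in 2 cells. The value of 360 CPM thus rests on very few cells.

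The microglia-like class was divided into 7 clusters that could be tested. Cells led by Cst7 and Ch25h (1682 and 524 cells) had Mmp12, Adam8, Timp2 and Plau higher than the mean of the other microglia-like clusters, beside 22.0% of all genes higher there. Mmp12 was at 17.0 and 5.57 CPM in these cells (log2 fold change 3.91 ± 0.78 SE, adjusted p = 0.000429 by edgeR; within libraries 2.95 and 2.99). Adam8 was at 43.0 and 18.9 CPM (2.11 ± 0.43, adjusted p = 0.000448). Timp2 was at 1189 and 982 CPM (0.74 ± 0.17, adjusted p = 0.0013) and Plau at 20.6 and 33.0 CPM (0.66 ± 0.20, adjusted p = 0.0123; within libraries 0.32 and 0.96). In replicate 1 Plau was higher in 4 other microglia-like clusters, up to 24.5 CPM in cells with Ifit genes leading. Cells with Ifit genes leading (193 and 149 cells) had Mmp14 at 35.8 and 20.8 CPM (1.66 ± 0.33, adjusted p = 0.00159), beside 5.96% of genes higher there. Timp2 was lower in 2 further microglia-like clusters, by 0.65 ± 0.19 (adjusted p = 0.0163) and by 0.71 ± 0.19 (adjusted p = 0.0142) on the log2 scale, beside 9.74% and 7.65% of genes lower.

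**Figure D3:**
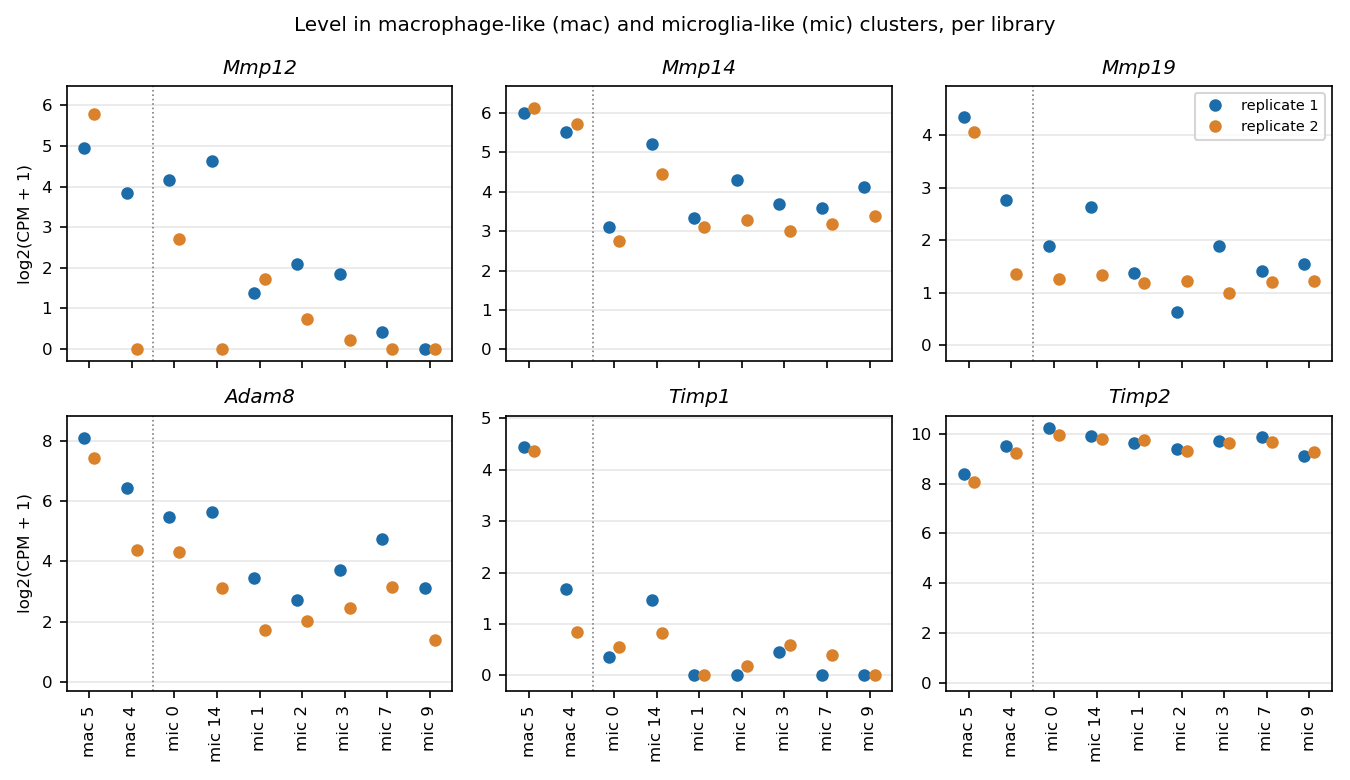
Level of 6 of the genes in 2 macrophage-like (mac) and 7 microglia-like (mic) clusters, as log2(CPM + 1) on the vertical axis, with 1 point per library; mac 5 is the Arg1 cluster, mac 4 the Ms4a7 cluster, mic 0 the Cst7 cluster and mic 14 the Ifit cluster. Timp1 and Adam8 lie higher, and Timp2 lower, in mac 5 than in mac 4, where Timp2 is at 729.9 and 597 CPM.

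The neutrophil-like class held cells with few and with many microglia transcripts, and the levels of Mmp8, Mmp9 and Adam8 were higher in the former. Cells whose 10 microglia markers summed to under 4000 CPM of the cell (132 and 348 cells, median 2374 and 2174 UMIs) had Mmp9 at 437 and 717 CPM, against 112 and 240.4 CPM in the remaining neutrophil-like cells (585 and 240 cells, median 6268 and 7804 UMIs). Mmp8 was at 296 and 217 CPM in cells with few microglia transcripts, against 38.1 and 49.8 CPM in the rest, and Adam8 at 164 and 241 CPM, against 61.7 and 68.5 CPM in the rest. The neutrophil markers summed to 153170 and 176281 CPM in cells with few microglia transcripts, against 20598 and 36393 CPM in the rest. The choice of cells therefore also bears on Mmp9, Mmp8 and Adam8. Timp2 was the other way round, at 350.3 and 176 CPM in cells with few microglia transcripts, against 714 and 560.1 CPM in the rest; it is a gene highest in microglia-like cells, so the choice of cells bears on it. The limit of 4000 CPM was chosen after the data had been seen, 218 and 108 cells lie near it, and the division is a range and not a cell type. The part that microglia transcripts in the same barcodes play in the levels was not tested. With the cells of few microglia transcripts alone, Mmp9, Mmp8 and Adam8 stayed higher than in microglia-like cells, in a fit in which 1975 of 11736 genes were higher and 1822 lower. Genes lower in that fit are not read, since cells were chosen for having few microglia transcripts. Against monocyte-like cells Mmp8 then passed as higher (2.01, adjusted p = 0.0175) and Mmp14 did not pass (-1.75, adjusted p = 0.0505), beside 771 genes higher and 892 lower.

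**Figure D4:**
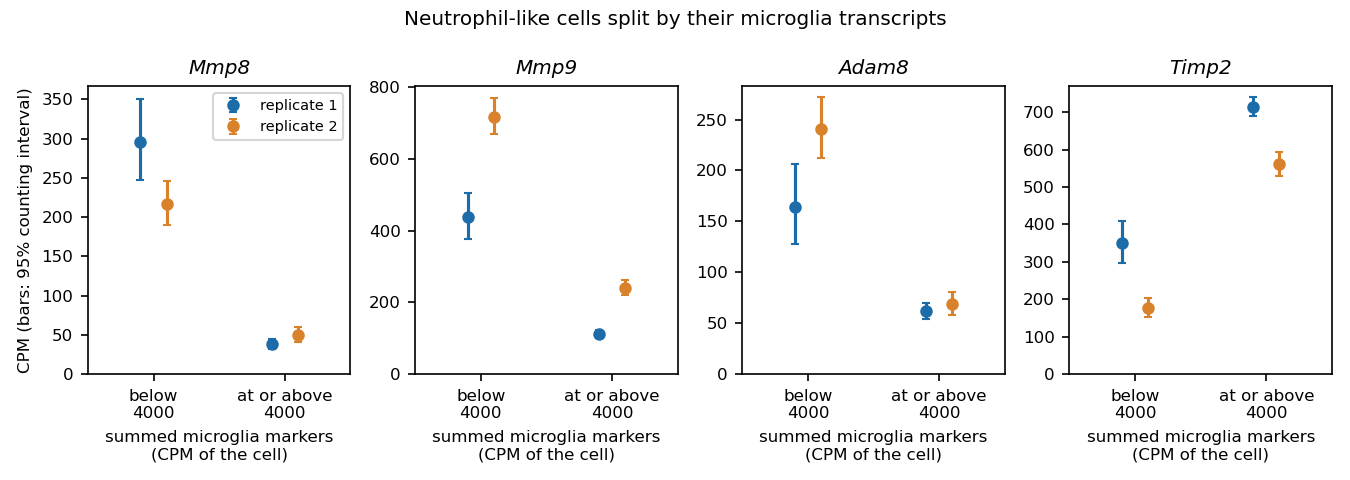
Level in CPM (vertical axis, from 0) of Mmp8, Mmp9, Adam8 and Timp2 in neutrophil-like cells with summed microglia markers below 4000 CPM of the cell (left) and at or above it (right), 1 point per library with exact 95% Poisson intervals. Mmp9 is at 437 and 717 CPM on the left, against 112 and 240.4 CPM on the right.

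Finer clustering also divided the neutrophil-like class. Cells led by Camp, Ngp and Ltf, genes of the secondary granules of maturing neutrophils (95 and 352 cells), held Mmp8 at 462 and 266 CPM and Mmp9 at 677 and 769 CPM. Cells led by G0s2, Il1r2 and Cxcr2, genes of mature neutrophils (600 and 215 cells), held Mmp8 at 35.3 and 27.0 CPM and Mmp9 at 108 and 221 CPM. Levels of both enzymes were thus higher in the Camp cells of each library. The 10 microglia markers summed to 2791 and 1567 CPM in the Camp cells, against 9636 and 11305 CPM in the G0s2 cells, and the 11 neutrophil markers to 249406 and 194945 CPM in the Camp cells, against 18984 and 28105 CPM in the G0s2 cells. Their part in the difference was not tested.

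The transcripts of some genes were concentrated in few cells. In macrophage-like cells the 956 Mmp12 UMIs of replicate 1 lay in 273 of 4756 cells, and the 48 cells with most held 59.6% of them, up to 76 in 1 cell. In replicate 2, 220 UMIs lay in 21 of 566 cells, with 74 in 1 cell. Mmp9 in macrophage-like cells was narrower still, with 131 UMIs in 54 cells (up to 35 in 1) and 30 UMIs in 6 cells (24 in 1), so its class level in replicate 2 rests mainly on 1 cell. Timp1 in monocyte-like cells lay in 37 and 76 cells, with a mean of 3.22 and 5.01 UMIs per cell that had any. Mmp8 was more even: the 1% of macrophage-like cells with most held 14.1% and 25.6% of its UMIs. Whether these cells are a separate kind was not tested.

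**Figure D5:**
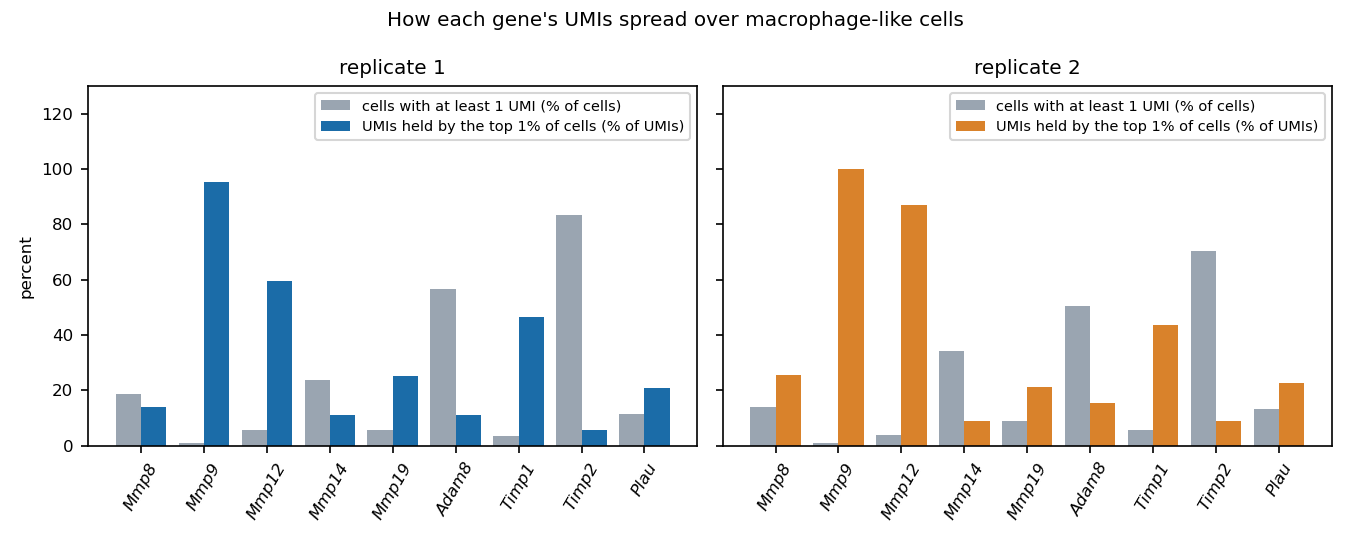
For each of the 9 genes in macrophage-like cells of replicate 1 (left) and replicate 2 (right), the share of cells with at least 1 UMI (grey bars, percent of cells) and the share of the gene's UMIs in the 1% of cells with most of them (coloured bars, percent of UMIs). For Mmp12 the coloured bars stand at 59.6% and 86.8%, against 14.1% and 25.6% for Mmp8.

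Proteases and inhibitors were then read in the same cells, each thinned to 1000 UMIs, as a description with no test because cells of 1 library are not replicates. Of neutrophil-like cells with an Mmp9 UMI, 18.5% and 20.8% also had an Adam8 UMI (22 of 119 and 44 of 212 cells), against 6.86% and 11.4% of those without Mmp9. A Timp2 UMI was seen in 40.3% and 20.3% of neutrophil-like cells with Mmp9, against 44.0% and 30.6% of those without. At 1000 UMIs Mmp9 was seen in 37.1% and 45.7% of neutrophil-like cells with few microglia transcripts, against 11.97% and 22.1% of the rest. Adam8 was seen in 15.2% and 20.4%, against 7.35% and 6.67%, and Timp2 in 21.97% and 14.1%, against 48.2% and 45.4%. Pairs were not read within each part, so the share of this division in the pairing was not tested. In monocyte-like cells Timp1 was seen in 8.54% and 13.9% of cells with Adam8, against 6.74% and 5.83% of those without. In macrophage-like cells of replicate 1, 25.5% of the 137 cells with Mmp8 had Adam8, against 15.4% of those without.

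Finally, the genes most like each of the 9 across classes were taken as those with the highest Pearson r of log2(CPM + 10) over 8 classes, of 4456 genes compared. The 8 points share libraries and their depth, and the r values are a description. Mmp9 ran with Lcn2 (r = 0.985), Retnlg (0.980) and Wfdc21 (0.976), and Mmp8 with Gsr (0.980), Arg2 (0.974) and Cd300ld (0.963). These partners were among the genes used for clustering, as were Sdc1, Clec4d, Ninj1 and Id3 of those below. Retnlg and Wfdc21 are also neutrophil markers used to name classes, so their r is not independent of the classes. Mmp12 ran with Igsf8 (0.954), Cxcl16 (0.943) and Myo5a (0.892), Mmp14 with Tspan17 (0.976), Sec24d (0.974) and Ndufa7 (0.973), and Mmp19 with Sdc1 (0.980), Vcan (0.976) and Uba1 (0.948). Adam8 ran with Rab7 (0.981), Clec4d (0.971) and Ninj1 (0.969), and Plau with Ggh (0.941), Pomp (0.939) and M6pr (0.927). The inhibitors had separate partners, Copb1 (0.972), Id3 (0.965) and Gas7 (0.964) for Timp1, and Pon3 (0.970), Pdlim4 (0.969) and Gas6 (0.961) for Timp2. No gene is named for more than 1 of the 9.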

How the data were processed

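Single-cell transcripts of 2 libraries of 1 group were counted. The values are raw UMI counts per gene and barcode of every kit barcode, deposited by the authors without normalization, with Cell Ranger named in the file headers. Per the submitters' processing notes, the tools included Cell Ranger 4.0.0, Seurat 4 and STAR 2.5.1b. The same notes list 3 builds, mm10, GRCh38 and GRCm38, with no role given. Gene loci come from GENCODE vM21 of GRCm38 and start windows from RefSeq GRCm38.p6. Members, lists and tests were chosen with earlier results of these data known.

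A barcode counted as a cell with 1000 UMIs or more, 500 genes or more and no more than 10% of UMIs from mitochondrial genes (15050 and 7910). Scrublet marked 1426 cells of replicate 1 and none of replicate 2, which counts as a failed call, so the 501 top-scoring cells were removed there. With scanpy 1.11.5 (scikit-learn 1.9.0, leidenalg 0.10.2, igraph 0.11.9), 2000 variable genes without the 9 genes and the pathway lists, 30 components and 15 neighbours gave 24 Leiden clusters at resolution 0.8. A cluster was named from marker lists by a rule written after the clusters had been seen: at least 3 of its 10 leading genes, otherwise the list with most markers detected at 50 CPM. Clusters under 100 cells, or with contrary leading genes, stayed unnamed (3.14% and 5.55% of cells), and other naming may give other classes.

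UMIs were summed per library and class and tested with edgeR 4.0.16 in R 4.3.3 (quasi-likelihood test, TMM, filterByExpr), 8 classes in 1 fit with 7 residual degrees of freedom. Both classes of a comparison come from the same libraries, so the library number pairs the sums and was the block. Within-library log2 folds use a prior count of 2. The libraries are distinct: over 15071 genes the chi-square of their counts was 371 times its degrees of freedom. The fit was checked on data with known answers before use. The genes named are all 9 members in each comparison, up to 3 called genes of each other list by absolute fold with the same sign in both libraries, of which the text gives a part, and the 3 genes of highest r with at least 50 CPM in 1 class. Alternatives were DESeq2 1.42.0, no low-count filter, a stricter cell filter, doublets kept, other resolutions, no block and each library left out; restricting the macrophage-like and neutrophil-like classes was added after seeing the data.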

Additional observations from a re-analysis of the deposited data

Results flagged for a closer look

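Barcodes of at least 500 UMIs that failed the cell filter entered no comparison, and transcripts of all 9 genes were counted in them, 1686 barcodes in replicate 1 and 497 in replicate 2. They held 293 Mmp9 UMIs, of which 283 were in replicate 1, a level of 189 CPM, against 142 CPM in neutrophil-like cells and 9.79 CPM in free RNA of that library. They also held 76 Mmp8, 247 Adam8, 11 Mmp12, 42 Mmp14, 11 Mmp19, 14 Timp1, 844 Timp2 and 24 Plau UMIs over both libraries.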

How the results depend on the processing

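Of 396 alternative log2 fold changes of the 9 genes, 354 were counted as the same. Refits counted so if they kept direction and side of the threshold. Values with a library left out have no adjusted p and counted so if close to the main value. The called genes that lost the call are given beside their results. All 10 counted reversals were in genes not called, and all came from refits. Sign changes with a library left out were counted for called genes only. Macrophage-like over microglia-like, Plau turned to -0.11 with the larger macrophage-like clusters. Over monocyte-like cells, Mmp9 turned to 0.41 under the stricter cell filter and 0.032 at Leiden 0.4, Mmp12 to -1.31 and Mmp14 to -0.24 at Leiden 0.4, and Plau to -0.13 under the stricter filter and -0.17 with the larger clusters. Neutrophil-like over microglia-like, Mmp12 turned to -0.070 with no replicate block and -1.25 with few microglia transcripts, and over monocyte-like cells Mmp8 turned to -1.03 with doublets kept. The cause was not tested. Of 135 alternative shares of cells with a UMI 70 moved, most of them on thinning. Monocyte-like cells made up 12.4% and 10.96% of cells at Leiden 0.4.

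Counts of called genes moved as follows. Macrophage-like over monocyte-like, 1258 higher genes became 429 under the stricter filter and 381 at Leiden 0.4, 1556 lower genes became 817 and 729, and 3 called genes of the 9 became 7 with no low-count filter. Neutrophil-like over microglia-like, 1008 higher genes became 620 under the stricter filter and 1975 with few microglia transcripts. The 61 lower genes became 104 with DESeq2, 152 with no filter, 8 under the stricter cell filter, 137 at Leiden 1.2, 13 with no replicate block and 1822 with few microglia transcripts, where 5 of the 9 genes were called in place of 3 in cells chosen for few microglia transcripts. Neutrophil-like over monocyte-like, 1321 higher genes became 2144 at Leiden 0.4 and 771 with few microglia transcripts, and 1575 lower genes became 892 with few. In the Arg1 over the Ms4a7 cluster 5 called genes of the 9 became 3 with no replicate block, and over the microglia-like clusters 7 became 19 with no filter.

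With 2 libraries, leaving one out gives within-library values and no test. Depth limits the low levels: Timp1 in microglia-like cells rests on 8 and 9 UMIs, so its fold is imprecise.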

Other observations

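Mmp9 and Timp1 were also found in unnamed clusters, which were looked at after their values had been seen. In the cluster of 37 and 21 cells with endothelial markers, all 105 Mmp9 UMIs of replicate 1 and all 268 of replicate 2 lay in 1 barcode of each library. These barcodes, of 24248 and 35107 UMIs, also held 372 and 912 UMIs of Ctsk, the collagenolytic cathepsin of osteoclasts, 240 and 777 of Acp5, the tartrate-resistant acid phosphatase, 21 and 43 of Atp6v0d2 and 6 of Ocstamp each, with none of the neutrophil gene S100a8. Mmp14 stood at 4 and 14 UMIs in them. In another unnamed cluster, of 67 and 6 cells, Timp1 was at 736 and 2257 CPM, 351 and 302 UMIs in 55 and 6 cells.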
